A study of Rattus norvegicus with 18 samples.

Results

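The enzymes that break down the branched-chain amino acids leucine, isoleucine and valine were followed in blood mononuclear cells of rats on 3 diets. The set held 10 genes (Bcat1, Bcat2, Bckdha, Bckdhb, Dbt, Bckdk, Ivd, Mccc1, Hibadh and Pcca), and its members were all probes that the array design assigns to one of these names. They came to 13 of the 41012 different probes that are not controls. Peripheral blood mononuclear cells (PBMC, the lymphocytes and monocytes that stay in the light layer of a Ficoll gradient) came from 18 male Wistar rats, 6 per diet, that were 2 months old when the diets began and were kept on them for 4 months. The high-protein diet (HPD) took 45% of its energy from protein, mainly casein, 45% from carbohydrate and 10% from fat. The high-fat diet (HFD) took 60% from fat, 20% from carbohydrate and 20% from protein, and the low-fat control diet (LFD) took 10% from fat, 70% from carbohydrate and 20% from protein. LFD rats ate freely, the other rats were given the same energy as LFD rats had eaten, and all rats were fasted for 14 h before they were killed. Each rat's RNA was labelled with Cy5 and hybridised to its own array, beside an equimolar pool of Cy3-labelled PBMC samples. A log2 ratio of 0 therefore marks the level of the pool. HPD replicate 7 carries conflicting labels, since its title calls it an HFD sample and its source name an HPD sample. It was counted as HPD.

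Branched-chain amino acids pass a reversible transamination and then an irreversible oxidative decarboxylation by the mitochondrial branched-chain keto acid dehydrogenase complex, after which each follows its own branch to acetyl-CoA, acetoacetate or succinyl-CoA. The pathway is best known from muscle, which transaminates these amino acids, and from liver, which oxidises the keto acids and where a protein-rich diet activates the complex through loss of inhibitory phosphate. In lymphocytes and macrophages the cytosolic transaminase Bcat1 is the form most often described.

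On genome build rn4, which the array design uses, the Bcat1 probe (A_43_P11881) lies at chr4:182646764-182646823 and the Bcat2 probe (A_44_P531752) at chr1:96054425-96054558. Bckdha (A_43_P15665) lies at chr1:80837874-80837892 and Bckdk (A_44_P100318) at chr1:187193160-187193219. The Bckdhb probe (A_44_P549610) has its ends at chr8:89060810-89120215. Dbt has probes at chr2:212779116-212779175 (A_42_P518818), chr2:212786448-212786507 (A_43_P20065) and chr2:212787269-212787328 (A_44_P372181). Ivd (A_44_P398176) lies at chr3:105391611-105391670, Mccc1 (A_43_P14611) at chr2:122416760-122416819 and Hibadh (A_44_P222147) at chr4:80853151-80853210. Pcca has probes at chr15:108028760-108028818 (A_43_P15669) and chr15:107687287-107704053 (A_44_P210753). Which exons the probes fall in was not analysed here.

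Promoter windows of 300 bases, from 250 before to 50 after the gene start, were taken from RefSeq on build GRCr8, where 9 of the 10 genes matched, Bcat1 with a pair of starts. The windows of Bckdhb and Ivd are shown because both genes followed T cell markers across the rats, and those of Bcat1 because it followed monocyte and B cell markers. Capitals mark CCAAT boxes (CCAAT, or ATTGG on the opposite strand), and all are written 5′ to 3′ along the gene's own strand.
Bckdhb, chr8:93725027-93725326, plus strand: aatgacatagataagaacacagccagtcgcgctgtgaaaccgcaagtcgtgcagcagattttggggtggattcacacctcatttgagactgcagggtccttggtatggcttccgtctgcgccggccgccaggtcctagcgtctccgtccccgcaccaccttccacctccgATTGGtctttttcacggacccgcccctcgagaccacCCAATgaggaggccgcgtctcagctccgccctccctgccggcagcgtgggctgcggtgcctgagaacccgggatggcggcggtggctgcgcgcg
Ivd, chr3:126305334-126305633, plus strand: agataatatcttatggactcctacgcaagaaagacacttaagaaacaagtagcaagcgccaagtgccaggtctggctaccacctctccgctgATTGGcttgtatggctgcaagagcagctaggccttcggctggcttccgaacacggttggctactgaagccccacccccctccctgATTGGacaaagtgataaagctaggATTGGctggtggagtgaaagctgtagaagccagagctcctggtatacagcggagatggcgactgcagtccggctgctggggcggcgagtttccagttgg
Bcat1, chr4:179777239-179777538, minus strand: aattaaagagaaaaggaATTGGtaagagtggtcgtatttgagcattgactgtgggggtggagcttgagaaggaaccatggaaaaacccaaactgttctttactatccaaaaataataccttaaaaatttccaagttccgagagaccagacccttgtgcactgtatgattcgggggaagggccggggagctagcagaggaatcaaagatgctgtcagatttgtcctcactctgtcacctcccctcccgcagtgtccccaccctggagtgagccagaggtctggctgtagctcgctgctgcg
Bcat1, chr4:179744159-179744458, minus strand: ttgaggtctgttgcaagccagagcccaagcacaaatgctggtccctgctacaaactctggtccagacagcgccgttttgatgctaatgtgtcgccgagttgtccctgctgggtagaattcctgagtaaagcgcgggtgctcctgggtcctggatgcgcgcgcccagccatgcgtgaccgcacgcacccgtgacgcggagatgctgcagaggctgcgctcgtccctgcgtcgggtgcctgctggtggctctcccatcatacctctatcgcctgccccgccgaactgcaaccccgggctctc
The Bckdhb window holds CCAAT boxes 80 and 44 bases before the start, and the Ivd window holds them 158, 73 and 49 bases before it. The Bcat1 window listed first holds a CCAAT box 233 bases before its start, and the other holds none. Of the 10 windows of the 9 matched genes, 7 held a CCAAT box, against 37.5% of 33469 windows of all genes. A GC box (GGGCGG, either strand) stood in 8 of the 10 windows, against 33.1% of all windows. Neither the E-box CACGTG nor TGATGNAA, the core of the amino acid response element, stood in any of the 10 windows, against 6.42% and 3.98% of all windows. No marked CCAAT box overlapped another of these motifs. These matches describe the letters of the windows only.

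The arrays were of similar brightness, with a median Cy5 signal of 61.5 to 84.3 over a local background of 31 to 37, and 53.1% to 63.5% of probes well above background. LFD replicates 6 and 2 stood apart with the widest spread of log2 ratios (median absolute deviation 0.618 and 0.581, against 0.271 to 0.401 on the other arrays). They also formed the only pair of arrays among 153 that correlated below -0.3 (r = -0.496 over all probes), and the direction of the ratios was kept because the labels state the dyes. Every T cell, B cell, NK cell and monocyte marker with a probe was read on all 18 arrays by at least 1 probe. These were 7 of 8, 4 of 6, 6 of 6 and 6 of 6 listed genes. The monocyte list also held dimmer probes of Cd14 (A_44_P519251, well above background on 13 arrays) and Csf1r (A_44_P226109, on 11). Platelet and red cell markers were read as well (5 of 6 genes each), and of 6 neutrophil genes 3 were kept. Where nothing else is said, values below are log2 ratios of processed Cy5 over Cy3 signal, differences are between diets, and tests are limma's over all 25237 probes kept.

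Transcripts of the enzymes were detected in the PBMC samples on every diet. Of the 13 probes, 12 were kept and covered all 10 genes, since these met the detection minimum, a Cy5 signal well above background on 5 or more of the 18 arrays. On 11 of the 12 it was so on all 18 arrays. The exceptions were probes of Dbt: A_43_P20065 was above background on 15 arrays (5 of 6 HPD, 6 of 6 HFD and 4 of 6 LFD), and A_42_P518818 on 4 (1 HPD, 1 HFD and 2 LFD), so the ratios of A_42_P518818 were not tested. In Cy3, A_43_P20065 was well above background on 12 of the 18 arrays and A_42_P518818 on 0. No member spot was saturated.

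No member differed between diets past the threshold, an adjusted p of 0.05 over all probes. In HPD against HFD 0 of 12 member probes were called, and 0 of 25237 probes overall (0%). The same held in HPD against LFD (0 of 12 and 0%) and in HFD against LFD (0 of 12 and 0%), and the moderated F test for any diet called 0 of 12 members and 0 of all probes (0%). At an unadjusted p under 0.05 the counts of members were 0 of 12 in HPD against HFD, 0 of 12 in HPD against LFD and 1 of 12 in HFD against LFD, while 3.02%, 2.84% and 2.01% of all probes passed in the 3 comparisons. The 1 member was Ivd. The F test had an unadjusted p under 0.05 for 0 of 12 members and for 2.3% of all probes. With HPD replicate 7 left out or counted as HFD, 0 of 12 members were called as well. All 12 probes overlapped between the diets in all 3 comparisons, but the share of all probes that did so was not computed.

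The intervals of the differences come from the fit without slide, hold for 1 probe at a time and were not adjusted for the number of probes. The 95% interval of the difference lay within 2-fold in either direction for 12 of 12 member probes in HPD against HFD, 11 of 12 in HPD against LFD and 11 of 12 in HFD against LFD, Dbt A_43_P20065 being the exception in both. Within 1.5-fold lay 9, 10 and 9 of the 12. The median half-width of these intervals was 0.31. Member probes were higher in 7 and lower in 5 of 12 in HPD against HFD, where 52.3% of all probes were higher and 47.7% lower, with a median difference of 0.04 against 0.01 over all probes. In HPD against LFD 4 were higher and 8 lower, against 53.9% and 46.1% of all probes (median -0.02, against 0.02 over all probes). In HFD against LFD 4 were higher and 8 lower as well, against 51.5% and 48.5% of all probes (median -0.07, against 0.01). Exact permutation p-values given below for single members are two-sided, unadjusted and over all 924 splits of the 12 rats of a comparison, and adjusted p-values are limma's.

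**Figure D1:**
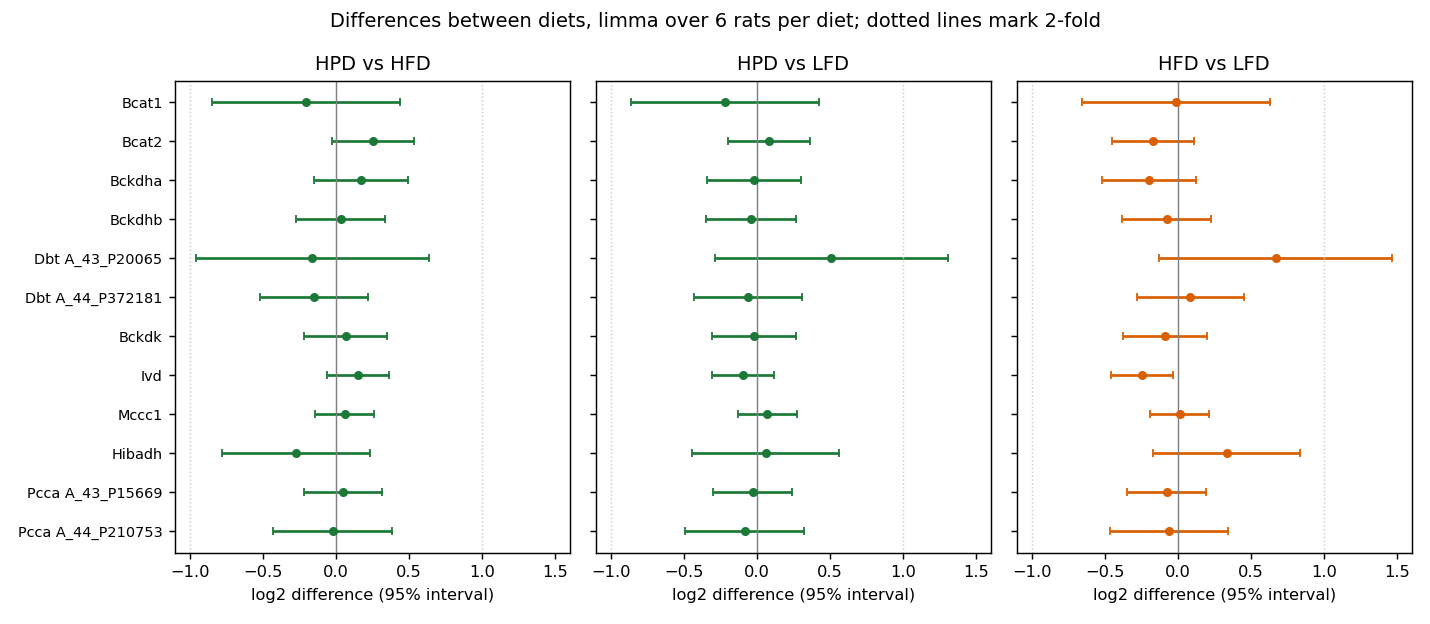
Differences in log2 ratio between diets for the 12 member probes kept, with 95% intervals from limma over 18 rats (6 per diet); dotted lines mark a 2-fold difference. All intervals cross 0 except that of Ivd in HFD against LFD, which ends at -0.03, and none passed the adjusted threshold.

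Of the transaminases that start the pathway, Bcat1, the cytosolic form, was among the most variable members and showed no diet difference. Its log2 ratio ran from -0.92 (median -0.45) to 0.79 in HPD rats, from -0.66 (median -0.15) to 0.59 in HFD rats and from -0.90 (median -0.11) to 0.69 in LFD rats. Each diet thus held rats above and below the pool, though in HPD only replicate 2 lay well above it, the next being replicate 7 at 0.07. The probe was dim, with a Cy5 signal of 54.0 to 206 (median 87.8). The mean was -0.30 ± 0.64 in HPD, -0.10 ± 0.44 in HFD and -0.08 ± 0.58 in LFD (SD, n = 6 each), and HPD minus HFD was -0.20 (SE 0.31, exact permutation p = 0.524, limma's adjusted p = 0.995), and ran from -0.0672 without HFD replicate 1 to -0.423 without HPD replicate 2.

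Bcat2, the mitochondrial transaminase, had the clearest separation of HPD from HFD among the members apart from Ivd, without passing the test. Its values were -0.06 to 0.54 (median 0.08) in HPD, -0.32 to 0.32 (median -0.20) in HFD and -0.12 to 0.35 (median -0.03) in LFD. All 6 HPD rats lay above the HFD mean, but HFD replicate 2 exceeded all HPD rats except replicate 1, so the groups overlapped. HPD minus HFD was 0.25 (SE 0.13, exact permutation p = 0.0801, adjusted p = 0.995). On the 2 slides that hold both diets it was 0.31 and 0.32, and with another background correction, normexp on all spots, it was 0.129. HFD minus LFD was -0.17 (SE 0.13) and HPD minus LFD 0.08 (SE 0.13).

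The subunits of the dehydrogenase complex did not all move together. Bckdha encodes the alpha subunit of its decarboxylase, which carries the regulatory phosphorylation sites, and Bckdhb the beta subunit. Bckdha was -0.36 to 0.42 (median -0.08) in HPD, -0.46 to -0.02 (median -0.18) in HFD and -0.54 to 0.22 (median 0.07) in LFD. All 6 HFD rats lay below the pool, as did 3 of 6 HPD and 2 of 6 LFD rats, and the lowest value of all belonged to LFD replicate 2. HFD minus LFD was -0.19 (SE 0.15, exact permutation p = 0.171, adjusted p = 1), and within slides 1, 3 and 5 it was -0.07, -0.34 and -0.27. HPD minus HFD was 0.17 (SE 0.15), but on the 2 slides that hold both diets it was -0.07 and -0.01, with slide as a block 0.0074 and without HPD replicate 7 0.0819.

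Bckdhb varied most within LFD. It was -0.17 to 0.20 (median 0.05) in HPD, -0.23 to 0.30 (median -0.05) in HFD and -0.51 to 0.51 (median 0.04) in LFD, where replicate 6 was lowest and replicate 1 highest. The 3 differences lay between -0.07 and 0.03 (SE 0.14 each). Across the 18 rats Bckdha and Bckdhb correlated at r = -0.305 (Spearman -0.249, permutation p = 0.221, adjusted p = 0.499 over 66 pairs of member probes, and r = -0.108 without HPD replicate 7 and LFD replicate 2).

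Dbt encodes the transacylase that forms the core of the complex, and its probes disagreed. A_44_P372181 was -0.42 to 0.26 (median -0.31) in HPD, -0.48 to 0.49 (median -0.07) in HFD and -0.47 to 0.11 (median -0.03) in LFD. Its differences were -0.15 in HPD against HFD, -0.06 in HPD against LFD and 0.09 in HFD against LFD (SE 0.18 each), and the diets overlapped throughout. A_43_P20065 was -0.69 to 0.76 (median -0.03) in HPD, -0.30 to 0.69 (median 0.18) in HFD and -1.64 to 1.09 (median -0.83) in LFD.

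On A_43_P20065 the highest value of all was that of LFD replicate 2. The lowest was read in LFD replicate 6, whose spot was not well above background in Cy5. Nor were those of LFD replicate 5 and HPD replicate 4. The order of these low values and the differences from LFD thus rest on such spots. HFD minus LFD was 0.67 (SE 0.38, exact permutation p = 0.165, adjusted p = 1) and HPD minus LFD 0.51 (SE 0.38). The size rested on the processing and on single arrays. With normexp on all spots HFD minus LFD was 0.07, and with spots marked as background outliers left out of its model 0.17. Both settings add an offset of 50 to each dye, which draws the ratios of dim probes towards 0. The median Cy5 signal of this probe was 38.9. HFD minus LFD was 0.12 in the authors' deposited values, 1.07 without slide 1, 0.99 without LFD replicate 2 and 0.44 without LFD replicate 6. Within slides 1, 3 and 5 it was -0.12, 0.93 and 1.34. Over the rats the 2 tested Dbt probes correlated at r = 0.333 (Spearman 0.366, permutation p = 0.175, adjusted p = 0.444, and r = 0.452 without LFD replicates 2 and 6). Bckdhb correlated with A_43_P20065 at r = 0.553 (Spearman 0.465, permutation p = 0.0169, adjusted p = 0.124), but at 0.233 without LFD replicates 2 and 6. With A_44_P372181 Bckdhb gave r = 0.0277 (Spearman 0.154, permutation p = 0.914, adjusted p = 0.946).

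Bckdk, the kinase that inactivates the complex by phosphorylating Bckdha, was close to the pool in every diet. Its values were -0.34 to 0.09 (median 0.004) in HPD, -0.47 to 0.07 (median -0.12) in HFD and -0.50 to 0.29 (median -0.04) in LFD. HPD minus LFD was -0.02 (SE 0.14), with a 95% interval of -0.30 to 0.27. The kinase lay both above and below the pool in rats of every diet.

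In the leucine branch, Ivd showed the only unadjusted limma p under 0.05 of the set between diets. Ivd encodes isovaleryl-CoA dehydrogenase, which acts on leucine's product of the complex. Its log2 ratio was -0.16 to 0.17 (median -0.01) in HPD, -0.26 to -0.09 (median -0.16) in HFD and -0.28 to 0.29 (median 0.11) in LFD. The HFD rats lay close together, all below the pool, while 5 of 6 LFD rats lay above it and LFD replicate 6 lay below every HFD rat.

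The Ivd mean was -0.01 ± 0.12 in HPD, -0.16 ± 0.06 in HFD and 0.09 ± 0.20 in LFD (SD, n = 6 each). HFD minus LFD was -0.25 (SE 0.10, 95% interval -0.46 to -0.03, limma's adjusted p = 1), and all 6 HFD rats lay below the LFD mean. The exact permutation test gave p = 0.0173 for HFD against LFD and p = 0.0238 for HPD against HFD, where the difference was 0.15 (SE 0.10) and was 0.0691 with slide as a block and 0.0984 with normexp on all spots. These were the 2 exact p-values under 0.05 among 36 for the members, unadjusted, and the share over all probes was not computed. For HPD against HFD limma gave Ivd an unadjusted p of 0.154 and an adjusted p of 0.995. The unadjusted limma p of HFD against LFD was above 0.05 without LFD replicate 1, LFD replicate 4, HFD replicate 1 or slide 1.

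On the slides that hold both diets, HFD minus LFD for Ivd was -0.39 on slide 1, -0.22 on slide 3 and 0.13 on slide 5, the last with LFD replicate 6. T cell markers were lower in HFD than in LFD in 6 of their 7 probes (mean difference -0.11, none called), and the summed Cy5 signal of the list was 197000 to 289000 in HFD and 214000 to 324000 in LFD. The part of T cells in the Ivd values was not tested.

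Mccc1 was the steadiest member. It encodes the biotin-carrying subunit of methylcrotonyl-CoA carboxylase, the next leucine enzyme after Ivd. Its SD over the 18 arrays was 0.126, and 2.97% of all kept probes had a smaller one. Values were -0.21 to 0.21 (median -0.002) in HPD, -0.22 to 0.15 (median -0.08) in HFD and -0.18 to 0.07 (median -0.10) in LFD, and the widest of its 3 differences was 0.07 (HPD minus LFD, SE 0.10).

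Hibadh, the 3-hydroxyisobutyrate dehydrogenase of the valine branch, was in contrast one of the 3 tested probes that varied more than the median probe (SD 0.433, against 0.361), with Bcat1 (0.536) and Dbt A_43_P20065 (0.722). It was -0.64 to 0.28 (median -0.23) in HPD, -0.49 to 0.82 (median 0.03) in HFD and -0.72 to 0.42 (median -0.39) in LFD. HFD replicate 2 was the highest rat and LFD replicate 4 the lowest. HFD minus LFD was 0.33 (SE 0.24, exact permutation p = 0.258, adjusted p = 1), and within slides 1, 3 and 5 it was 0.18, 0.23 and 0.12. It was 0.185 without HFD replicate 2 and 0.192 with normexp on all spots. HPD minus HFD was -0.28 (SE 0.24), but -0.60 and 0.10 on the 2 slides that hold both diets, -0.126 without HFD replicate 2 and -0.0863 without slide 1.

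Pcca encodes the biotin-carrying subunit of propionyl-CoA carboxylase, where the valine and isoleucine branches meet. On A_43_P15669 it was -0.09 to 0.27 (median 0.19) in HPD, -0.12 to 0.23 (median 0.10) in HFD and -0.16 to 0.67 (median 0.10) in LFD. On A_44_P210753 it was -0.29 to 0.23 (median -0.03) in HPD, -0.20 to 0.48 (median -0.13) in HFD and -0.87 to 0.51 (median 0.17) in LFD. LFD replicate 6 was the highest rat on both probes. The widest of the 6 differences between diets was -0.08 (HPD minus LFD on A_44_P210753, SE 0.19), and the probes correlated at r = 0.319 over the rats (Spearman 0.259, permutation p = 0.189, adjusted p = 0.461, and r = 0.164 without LFD replicates 3 and 6).

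**Figure D2:**
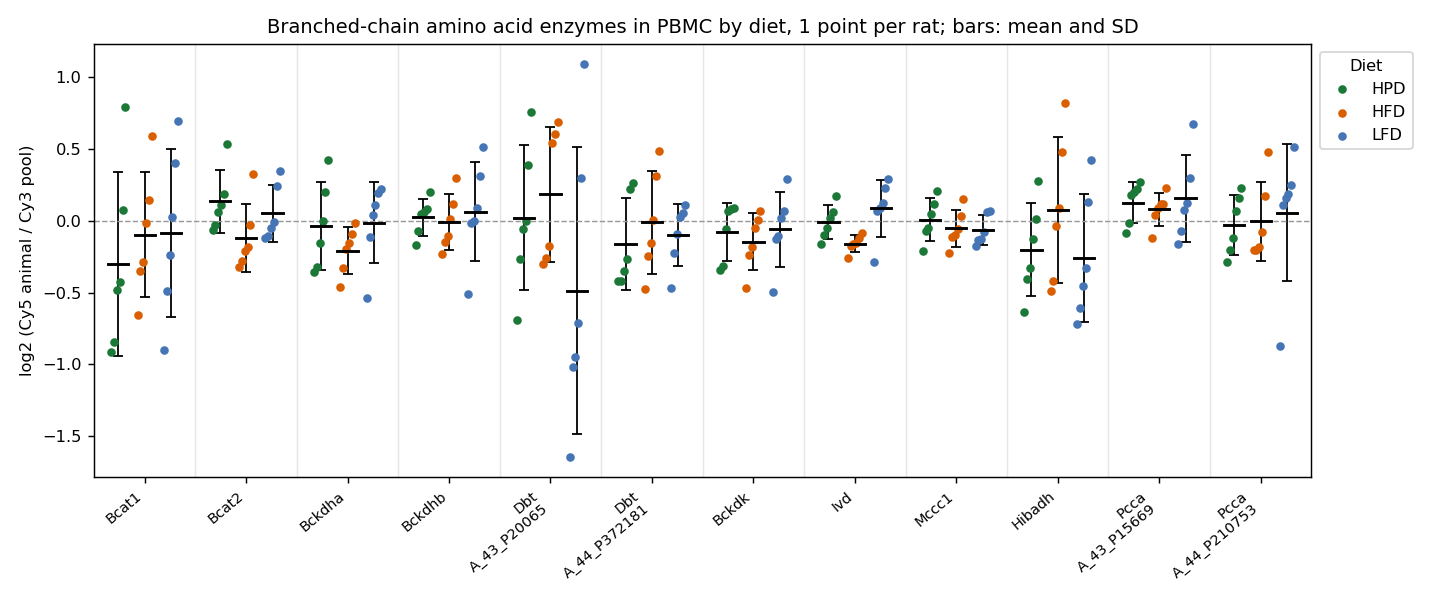
Log2 ratio of each rat (points) for the 12 member probes kept, by diet, with the mean and SD of 6 rats. HPD, HFD and LFD overlap for every probe; Ivd in HFD rats is tightly grouped between -0.26 and -0.09, and Dbt A_43_P20065 in LFD rats runs from -1.64 to 1.09.

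The arrays lay on 5 slides, each scanned at its own time, and the diets were spread unevenly over them (slide 1 held 2 HFD and 2 LFD rats, slide 2 held 3 HPD and 1 HFD, slide 3 held 1 HPD, 2 HFD and 1 LFD, slide 4 held 2 HPD and 2 LFD, and slide 5 held 1 HFD and 1 LFD). With diet in the fit, slide differences were called for 89 of 25237 probes (0.353%), and 23.2% of probes had an unadjusted p under 0.05. No member was among those called. Dbt A_43_P20065 (F test, adjusted p = 0.0996) and Hibadh (adjusted p = 0.143) were the 2 of 12 members with an unadjusted p under 0.05.

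Hibadh averaged 0.36 on slide 1, 0.03 on slide 2, -0.26 on slide 3, -0.44 on slide 4 and -0.55 on slide 5. Dbt A_43_P20065 averaged 0.63, 0.18, -0.07, -0.68 and -0.97 on the same slides. In Cy5, 2 of the 4 spots on slide 4 and 1 of the 2 on slide 5 were not well above background. The means of slides 4 and 5 are therefore uncertain. For both genes all 4 rats of slide 1 lay above the pool, and all rats of slides 4 and 5 lay below it. Bckdha ran the other way on slide 1, where it averaged -0.36 and all 4 rats lay below the pool.

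**Figure D3:**
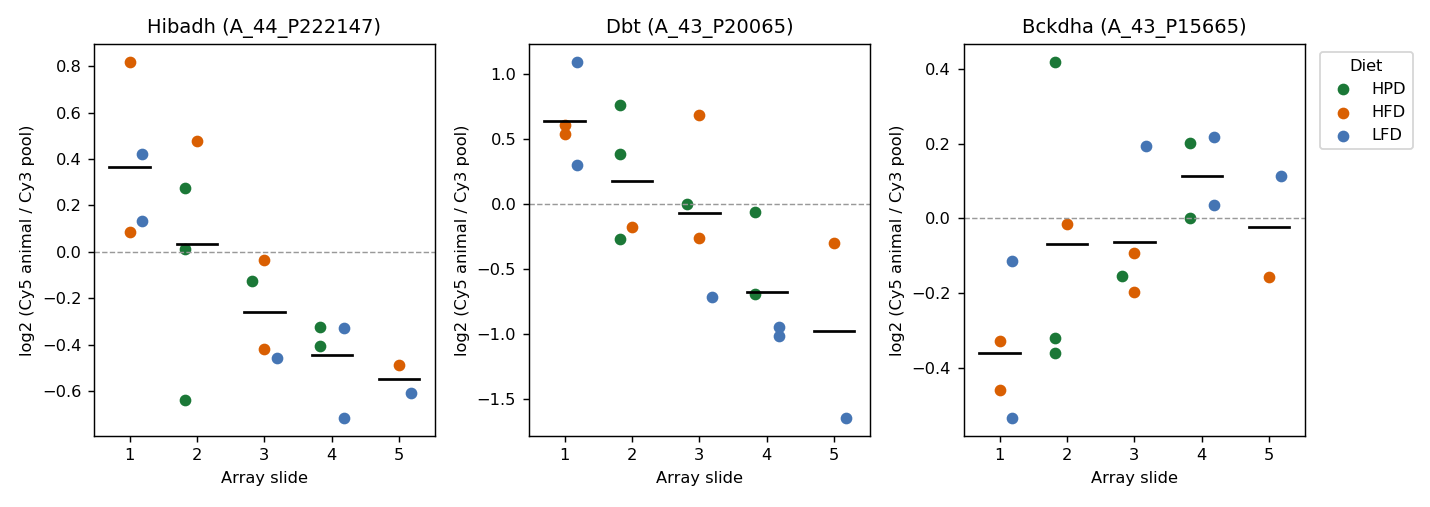
Log2 ratio of each rat for Hibadh, Dbt (A_43_P20065) and Bckdha by array slide, coloured by diet; black lines are slide means. Slide 1 is the highest for Hibadh (mean 0.36) and Dbt (0.63) and the lowest for Bckdha (-0.36). These 3 probes were chosen for display after their values were seen.

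Across the 18 rats the enzymes did not vary as a block. Of the 66 pairs of member probes, 29 correlated above 0 and 37 below, with a median Pearson r of -0.055. Permutation p-values (100000 permutations, two-sided) were adjusted over the 66 pairs, and 2 pairs passed. The matching shares among pairs of all probes were not computed. Bckdha and Dbt A_43_P20065, both of the dehydrogenase complex, ran against each other (r = -0.76, Spearman -0.794, permutation p = 0.00029, adjusted p = 0.0191). That relation was -0.804 without HPD replicate 7 and LFD replicate 2, -0.743 without LFD replicates 2 and 6, and -0.687 with slide means removed. It rests on a Dbt probe that was well above background on 15 of the 18 arrays in Cy5 and on 12 in Cy3. The other tested Dbt probe gave r = -0.412 with Bckdha (Spearman -0.393, permutation p = 0.0893, adjusted p = 0.281).

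Dbt A_43_P20065 and Hibadh varied in the same direction (r = 0.695, Spearman 0.763, permutation p = 0.00133, adjusted p = 0.0439), at 0.69 without LFD replicates 2 and 6. With slide means removed r was 0.289, so the relation did not hold within slides at that size. Another 3 pairs stood just outside the threshold, each with an adjusted p of 0.0545. Bckdk and Ivd varied in the same direction (r = 0.657, Spearman 0.579, permutation p = 0.00312), at 0.554 without HFD replicate 2 and LFD replicate 6 and 0.588 with slide means removed. Bckdha and Hibadh ran against each other (r = -0.643, Spearman -0.666, permutation p = 0.00413), at -0.61 without HPD replicate 7 and LFD replicate 2 and -0.405 with slide means removed. So did Dbt A_43_P20065 and Pcca A_44_P210753 (r = -0.639, Spearman -0.478, permutation p = 0.00387), at -0.37 without LFD replicates 2 and 6 and -0.535 with slide means removed.

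Bckdhb, Ivd and Bcat1 followed lists of blood cell markers, and Mccc1 ran against one. Each member probe was set against the mean log2 ratio of 7 lists of cell type markers, which gave 84 relations, 5 of them with an adjusted permutation p under 0.05. The share of such relations over all probes was not computed, so whether the members stand out by this count is not known. In bulk RNA, fewer cells of a type and less RNA per cell cannot be told apart. The relations singled out here were chosen after all 84 had been seen.

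Bckdhb followed the T cell list most closely (r = 0.835, Spearman 0.769, permutation p = 1e-05, the smallest these permutations can give, adjusted p = 0.00084). LFD replicate 6 was lowest and LFD replicate 1 highest on both measures. The correlation was 0.769 without LFD replicate 6 and HFD replicate 1, 0.745 without LFD replicates 2 and 6, 0.827 without HPD replicate 7, 0.929 with slide means removed and 0.837 with diet means removed. Of 25052 probes with a value on every array, 0.108% correlated as highly with this list. Its 7 genes were Cd3e, Cd3d, Cd3g, Cd5, Cd2, Zap70 and Lat, each well above background on all 18 arrays.

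Ivd followed the same list less closely (r = 0.666, Spearman 0.732, permutation p = 0.00236, adjusted p = 0.0396), as did 2.57% of all probes. The correlation was 0.482 without LFD replicate 6 and HFD replicate 1 and was 0.616 with slide means removed. The T cell list averaged -0.05 ± 0.15 in HPD, -0.14 ± 0.23 in HFD and -0.03 ± 0.27 in LFD (SD, n = 6 each).

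Bcat1 followed both the monocyte list (r = 0.791, Spearman 0.779, permutation p = 8e-05, adjusted p = 0.00336) and the B cell list (r = 0.789, Spearman 0.81, permutation p = 0.00014, adjusted p = 0.00392). Without HFD replicates 1 and 6 the monocyte correlation was 0.786, and with slide means removed it was 0.889. Without HFD replicate 1 and HPD replicate 4 the B cell correlation was 0.715, and with slide means removed it was 0.764. As high a correlation was shared by 0.535% of probes for monocytes and 0.255% for B cells. With the T cell list Bcat1 gave r = -0.0852 (Spearman -0.125, permutation p = 0.737, adjusted p = 0.91).

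The monocyte list averaged -0.57 ± 0.67 in HPD, 0.15 ± 0.66 in HFD and -0.14 ± 0.44 in LFD (SD, n = 6 each), with a summed Cy5 signal of 19600 to 79200 in HPD, 37400 to 158000 in HFD and 38700 to 101000 in LFD. Its probes were lower in 7 of 8 in HPD against HFD (mean difference -0.72, 0 called, 2 with an unadjusted p under 0.05, both of Cd14). Both Bcat1 and the monocyte list were lowest in HPD replicate 4. The part of monocytes in the Bcat1 values between diets was not tested.

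Mccc1 ran against the erythroid list (r = -0.743, Spearman -0.713, permutation p = 0.00065, adjusted p = 0.0136), at -0.779 without HFD replicate 2 and LFD replicate 3 and -0.709 with slide means removed. Among all probes 0.279% correlated as strongly in that direction. The inverse relation was not confined to red cell markers. Mccc1 also ran against the monocyte list (r = -0.647, Spearman -0.684, permutation p = 0.00379), just outside the threshold (adjusted p = 0.0531). With slide means removed that correlation was -0.633, and 1.73% of all probes ran as strongly against the monocyte list. With the B cell list Mccc1 gave r = -0.477 (permutation p = 0.0455, adjusted p = 0.379). The erythroid list (Slc4a1, Alas2 and Hbb among others) averaged -0.96 ± 0.62 in HPD, -0.11 ± 1.14 in HFD and -0.11 ± 1.09 in LFD (SD, n = 6 each), with a summed Cy5 signal of 7640 to 21300 in HPD, 9700 to 46500 in HFD and 6420 to 47500 in LFD. Hibadh varied in the same direction as this list (r = 0.539, Spearman 0.472, permutation p = 0.0222, adjusted p = 0.233), but with slide means removed r was 0.0193.

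**Figure D4:**
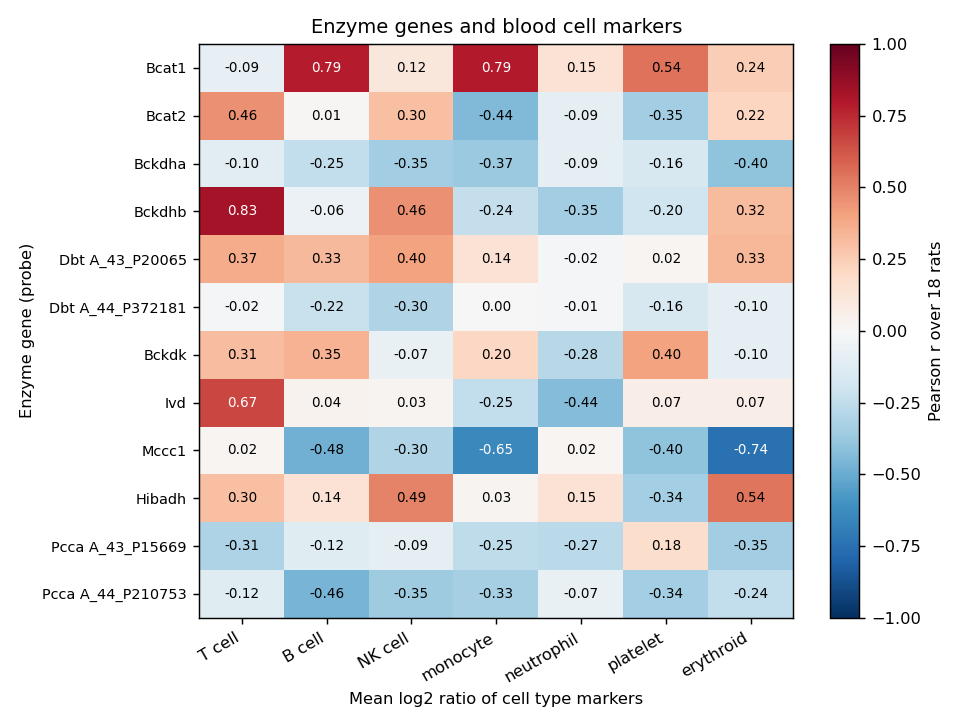
Pearson r over 18 rats between each member probe and the mean log2 ratio of 7 marker lists. Bckdhb with T cells (0.835), Bcat1 with monocytes and B cells (0.791 and 0.789) and Mccc1 with the erythroid list (-0.743) have the largest values shown.

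**Figure D5:**
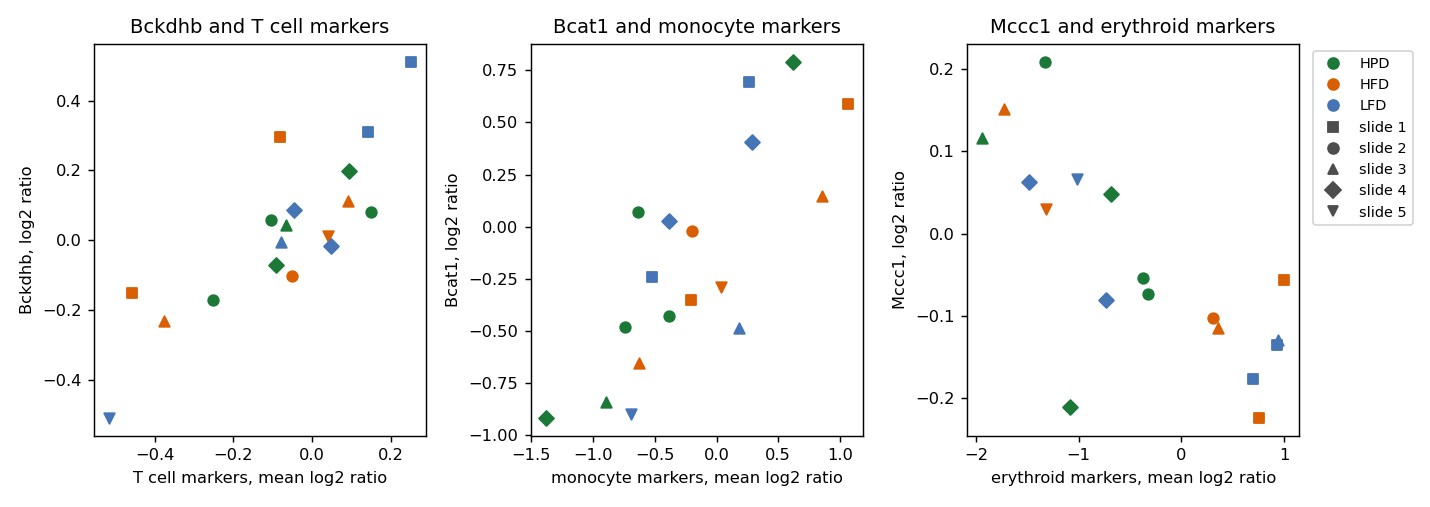
Log2 ratio of Bckdhb, Bcat1 and Mccc1 in each rat against the mean log2 ratio of the T cell, monocyte and erythroid markers, coloured by diet, with a symbol for each slide. The 18 rats of the 3 diets lie along common lines, with r = 0.835, 0.791 and -0.743; the panels were chosen after the values were seen.

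The genes whose log2 ratios most resembled each member's over the 18 arrays were listed by Pearson r, as a description. For Bcat1 they included P4hb, an endoplasmic reticulum chaperone (0.909), and Unc93b1, which carries nucleic acid-sensing Toll-like receptors (0.879). For Bckdhb they were Trnau1ap (0.916), the mitochondrial kinase Ak3 (0.915) and Cd8a, a coreceptor of cytotoxic T cells (0.912). Hibadh had the closest matches of all members, with Bmt2 (0.946), the pre-mRNA cleavage factor Pcf11 (0.943) and Rab12 (0.939).

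The other members had looser matches. Mccc1 was most like Ylpm1 (0.892), Bckdha like Klc4 and Armc5 (0.891 each), Bcat2 like Ppp4r3b (0.882) and Pcca A_43_P15669 like Prkag3 (0.83). Bckdk was most like Vps33a (0.887) and Ivd like the arginine methyltransferase Prmt5 (0.864), and Pigo was among the closest 3 for both (0.865 and 0.857). Dbt A_44_P372181 had the loosest, Pcdhb7 at 0.724. No member was among the closest 3 of another.

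The rest of the pathway was no different from the members in its calls. Of 30 other genes of these branches, their cofactors and transporters, 28 had a probe and 27 were kept, with 31 probes. Called were 0 of 31 in each comparison, with 1 unadjusted p under 0.05 in HPD against HFD (Btd) and 0 in the other comparisons. Of all probes 3.02% had such a p in HPD against HFD, 2.84% in HPD against LFD and 2.01% in HFD against LFD. Probes were higher in 18 and lower in 13 in HPD against HFD, 16 and 15 in HPD against LFD, and 15 and 16 in HFD against LFD. Of all probes 52.3%, 53.9% and 51.5% were higher in these comparisons, in the same order.

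Btd, which recycles the biotin that Mccc1 and Pcca carry, averaged -0.70 in HPD, -0.11 in HFD and -0.28 in LFD, and HPD minus HFD was -0.59 (SE 0.27, limma's adjusted p = 0.995). That difference was -0.156 with normexp on all spots and -0.949 with slide as a block. Mccc2, the partner subunit of Mccc1, was 0.25 higher in HPD than in HFD (SE 0.15), and Hlcs, which attaches biotin to the carboxylases, 0.25 higher (SE 0.17), against 0.158 and 0.119 with normexp on all spots. Auh, the leucine-branch hydratase, was -0.43 in HPD minus HFD and -0.44 in HPD minus LFD (SE 0.31 each). The first was -0.284 without HFD replicate 1 and -0.25 with HPD replicate 7 counted as HFD, and the second -0.193 without LFD replicate 2 and -0.123 without slide 1. Acadsb, which follows the complex in isoleucine breakdown, was 0.49 in HPD minus LFD (SE 0.42), but 0.075 with normexp on all spots, 0.158 without HPD replicate 4 and 0.293 without LFD replicate 5. Lias, which makes the lipoate that Dbt carries, was 0.27 in the same comparison (SE 0.27), but 0.0472 with normexp on all spots, 0.118 with array weights, 0.0439 without HPD replicate 2 and 0.47 without HPD replicate 1.

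In HFD minus LFD, Aacs, which activates acetoacetate in the cytosol, was -0.23 (SE 0.12). Without LFD replicate 2 the Aacs difference was -0.115, and without slide 1 it was -0.0844. Lias was 0.41 (SE 0.27), and 0.0491 with normexp on all spots. Aldh6a1, the valine-branch semialdehyde dehydrogenase, was 0.67 (SE 0.52), but 0.00606 with normexp on all spots and 0.0511 with marked spots left out of it, 0.378 with slide as a block, 0.333 without HFD replicate 2 and 0.434 without LFD replicate 6. All adjusted p-values of the other pathway genes named here were between 0.995 and 1. The tested probes of Btd, Lias, Acadsb and Aldh6a1 were not well above background in Cy5 on every array, which limits their differences.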

How the data were processed

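PBMC RNA of 18 rats was measured on 1 two-colour Agilent array per rat, with Cy5 for the rat and Cy3 for the pool, per the labels' protocols. Agilent Feature Extraction 10.5.1.1, named in the submitters' processing notes, wrote the deposited scanner files. Their processed signals, an intensity per spot and dye, had been background-subtracted, detrended and dye-normalized by that software, per the file headers. A deposited series table holds log2 values, and the sources used here do not give how these were made. Its columns have a median of 8.4, and its centred values correlated at 0.885 with the log2 ratios (slope 0.696), so it matched their direction, while its centring and full scale stay unknown and it served as an alternative.

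From the scanner values, log2(Cy5/Cy3) of the processed signals was taken, spots marked as outliers were set to missing (122 to 228 per array) and spots of a probe were averaged. Of 41012 probes, 25237 were kept, by a Cy5 signal well above background on 5 or more of the 18 arrays. Limma 3.58.1 (R 4.3.3) fitted group means over all 18 arrays, with moderated variances and Benjamini-Hochberg adjustment over all probes. Slide was tested as a term beside diet. Samples entered as separate animals. HFD replicates 1 and 6 were the most alike of the 153 pairs of arrays (r = 0.61, the next pair 0.517), and an alternative averaged them. The fit was tested on simulated data. Precision is limited by how many arrays there were.

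The members and gene lists were chosen with earlier results of these data known. Named were all member probes, the 2 probes per direction with the smallest p of the other pathway genes, and the 3 genes most like each member's probe of highest mean Cy5 signal. Some genes that this rule names are not reported here. Correlations were tested by permutation. Names and promoter windows come from RefSeq tables of GRCr8, which matched 20767 probes by accession, gene ID or symbol; probe positions are those of the design, on rn4. Alternatives covered background correction, normalization, filters, outlier spots, array weights, slide, conflicting labels, replicate numbers, similar arrays and left-out arrays. Both normexp alternatives added an offset of 50 to each dye, so the ratios of dim probes come out smaller there. Replicate numbers did not pair the arrays: 6 of 16 same-numbered pairs had deviations correlating above 0.1 (r -0.318 to 0.228).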

Additional observations from a re-analysis of the deposited data

Results flagged for a closer look

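In LFD replicate 2, Pcca on A_44_P210753 had a log2 ratio of -0.872, far below the nearest LFD rat at 0.107. That gap was 0.707 of the range of the 6 LFD rats, above Dixon's critical value for an outlying sample. It was the 1 such value among the 36 groups of 6 rats examined (12 probes in 3 diets), and chance marks about 1 in 20 groups. LFD replicate 2 is also one of the arrays with the widest spread of log2 ratios (median absolute deviation 0.581). Pcca on its other probe, A_43_P15669, was not outlying in that rat.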

How the results depend on the processing

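No member was called in any of 1221 member values over 34 settings, single left-out arrays included, and the median member difference stayed between -0.09 and 0.06 in all 3 comparisons. No diet comparison gained calls except HPD against LFD, with 2 probes under array weights and 0 to 1 without a single array (1 without LFD replicate 2). The direction of small differences was not stable, none of them called; the cause was not tested. With normexp on all spots, HFD minus LFD was 0.0156 for Pcca A_44_P210753, and HPD minus LFD -0.0719 for Hibadh and 0.0102 for Pcca A_44_P210753. Bcat1 in HFD minus LFD was 0.0324 with marked spots left out of normexp and 0.0209 after loess, and scaling put Pcca A_43_P15669 in HPD minus LFD at 0.0218. In the authors' deposited table, HFD minus LFD was 0.0959 for Bcat1 and -0.0615 for Mccc1, HPD minus LFD 0.0161 for Bckdha, and HPD minus HFD 0.0579 for Dbt A_43_P20065 and 0.0316 for Pcca A_44_P210753. With slide as a block, HFD minus LFD was 0.143 for Bcat1 and -0.00297 for Mccc1, HPD minus LFD 0.0368 for Bckdhb, 0.0681 for Dbt A_44_P372181 and 0.0244 for Pcca A_43_P15669, and HPD minus HFD 0.167 and 0.0441 for Dbt A_43_P20065 and A_44_P372181 and -0.0586 for Bckdk. Without slide 1, HFD minus LFD was 0.0349 for Bcat1, 0.0588 for Bckdhb and -0.0394 for Dbt A_44_P372181, HPD minus LFD 0.134 for Bckdhb and 0.00089 for Bckdk, and HPD minus HFD 0.0326 for Dbt A_43_P20065. With HPD replicate 7 counted as HFD, HFD minus LFD was 0.0113 for Bcat1, and HPD minus HFD -0.00783 for Bckdha, -0.019 for Mccc1 and 0.0393 for Pcca A_44_P210753, the last 0.0111 with that array left out. Array weights gave 0.0209 for Pcca A_43_P15669 in HFD minus LFD, 0.0344 for Dbt A_44_P372181 and 0.0321 for Pcca A_43_P15669 in HPD minus LFD, and -0.00311 for Bckdk in HPD minus HFD. With the replicate number as a block, HPD minus LFD was 0.0143 for Pcca A_43_P15669, and HPD minus HFD -0.00677 for Bckdhb and 0.049 for Pcca A_44_P210753. The replicate block called 0 probes in each comparison, and 4 of 18 arrays correlated best with their own number. With HFD replicates 1 and 6 averaged, Bckdhb in HPD minus HFD was -0.0025. Without LFD replicates 2 and 6, a choice made after seeing the data, Pcca A_43_P15669 was 0.0326 in HFD minus LFD and 0.0802 in HPD minus LFD, and Dbt A_44_P372181 0.0271 in HPD minus LFD.

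Leaving out single arrays, HFD minus LFD ranged from -0.176 to 0.143 for Bcat1, -0.188 to 0.0158 for Bckdhb, -0.012 to 0.181 for Dbt A_44_P372181, -0.0283 to 0.0466 for Mccc1, -0.14 to 0.0276 for Pcca A_43_P15669 and -0.246 to 0.0311 for Pcca A_44_P210753. HPD minus LFD ranged from -0.125 to 0.0443 for Bckdha, -0.155 to 0.0493 for Bckdhb, -0.107 to 0.0504 for Bckdk, -0.0365 to 0.195 for Hibadh, -0.0922 to 0.0752 for Pcca A_43_P15669 and -0.269 to 0.0075 for Pcca A_44_P210753. HPD minus HFD ranged from -0.0104 to 0.0946 for Bckdhb and -0.0751 to 0.0728 for Pcca A_44_P210753.

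The count of probes called for slide, 89, moved most: 830 with normexp on all spots, 888 with marked spots left out of it, 149 after loess, 26 after scaling, 2040 in the authors' deposited table, 0 without slide 1, 259 with HPD replicate 7 counted as HFD, 492 without it, 8 with no filter, 263 with probes above background on all arrays and 24 without LFD replicates 2 and 6. Without single arrays it was 0 (as without LFD replicate 1 or 2) to 3160 (without HFD replicate 5). Among the members, signal over background limits Dbt most, since A_43_P20065 is near background and is not tested where all 18 arrays must pass. Of the other pathway genes named above, Btd, Lias, Acadsb and Aldh6a1 are not tested there either.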
